A study of Mus musculus with 14 samples.

Results

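The genes described here encode the subunits of potassium, sodium and calcium channels and of the hyperpolarization-activated HCN channels. They were chosen by symbol alone: every gene whose symbol starts with Kcn, Cacna1, Cacna2d, Cacnb or Hcn, or is Scn followed by a number and a or b, which gave 124 of the 21568 symbols in the tables. By role, 39 were pore subunits of voltage-gated potassium (Kv) channels, 15 inward rectifiers, 12 tandem pore leak channels, 8 calcium- or sodium-activated potassium channels and 16 potassium channel auxiliary genes. Another 8 were sodium channel pores, 4 sodium channel beta subunits, 10 calcium channel pores, 8 calcium channel auxiliary subunits and 4 HCN channels. The sodium channel gene listed as Scn2a1 did not meet the rule, and its level is given only beside those of its relatives. The tissue was the lateral hypothalamic area, taken as punches from male wild-type C57BL/6J mice on a reverse light cycle, and single cells were captured on barcoded beads (Drop-seq). Mice ate freely, either a high fat diet (7 mice) or a control chow of matched taste (7 mice), with each library made from 1 mouse. No age is given for them. The 14 libraries were sequenced as pool 1 (4 mice of each diet) and pool 2 (3 of each) on separate lanes.

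Kv channels repolarize the action potential and set firing rate, whereas inward rectifiers and tandem pore channels hold the resting potential and, in glia, clear potassium released by neurons. Sodium channels start the action potential. Calcium channels couple it to secretion and transcription, and their alpha2delta and beta subunits carry the pore to the membrane. Auxiliary KChIP (Kcnip), Kv beta (Kcnab) and beta (Kcnmb and sodium channel beta) subunits tune the gating and trafficking of the pores. In the lateral hypothalamus these channels act in neurons that release glutamate or GABA and in peptide neurons that make hypocretin (orexin) or melanin-concentrating hormone (MCH), which drive arousal and feeding.

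Promoter sequences are shown for 5 genes whose levels set cell classes apart below: Kcnj8 in mural cells, Kcnj10 in glia, Scn9a in peptide neurons, and the alpha2delta genes Cacna2d1 and Cacna2d3 in glutamatergic and GABAergic neurons. They come from RefSeq (GRCm38.p6) and run from 250 bases before to 50 bases after each start site, 300 bases in all. Kcnj8 lies at chr6:142571565-142571864 on the minus strand and Kcnj10 at chr1:172340960-172341259 on the plus strand. Scn9a lies at chr2:66634913-66635212 on the minus strand, Cacna2d1 at chr5:15934441-15934740 on the plus strand and Cacna2d3 at chr14:29721815-29722114 on the minus strand. Capitals mark matches, on either strand, to the GC box letters (searched as GGGCGG with the reverse complement also printed in capitals where the minus strand matched) and to the TATA motif (searched likewise as TATAAA). The motifs do not contain each other.
Kcnj8: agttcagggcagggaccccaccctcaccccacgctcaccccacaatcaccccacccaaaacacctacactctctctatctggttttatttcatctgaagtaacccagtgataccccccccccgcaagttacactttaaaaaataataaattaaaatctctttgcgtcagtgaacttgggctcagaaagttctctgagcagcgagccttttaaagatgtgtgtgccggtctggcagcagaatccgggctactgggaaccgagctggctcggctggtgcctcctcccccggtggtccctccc
Kcnj10: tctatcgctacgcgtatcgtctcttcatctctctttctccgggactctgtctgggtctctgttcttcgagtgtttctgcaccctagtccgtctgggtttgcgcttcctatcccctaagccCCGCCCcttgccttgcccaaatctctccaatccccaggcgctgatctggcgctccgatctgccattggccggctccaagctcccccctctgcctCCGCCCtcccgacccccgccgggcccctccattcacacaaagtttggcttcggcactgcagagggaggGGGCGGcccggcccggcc
Scn9a: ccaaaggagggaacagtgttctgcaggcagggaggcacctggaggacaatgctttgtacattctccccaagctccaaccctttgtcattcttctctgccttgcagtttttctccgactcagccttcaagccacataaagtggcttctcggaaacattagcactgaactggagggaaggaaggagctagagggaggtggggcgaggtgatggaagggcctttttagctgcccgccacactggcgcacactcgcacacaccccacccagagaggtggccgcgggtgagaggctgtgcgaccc
Cacna2d1: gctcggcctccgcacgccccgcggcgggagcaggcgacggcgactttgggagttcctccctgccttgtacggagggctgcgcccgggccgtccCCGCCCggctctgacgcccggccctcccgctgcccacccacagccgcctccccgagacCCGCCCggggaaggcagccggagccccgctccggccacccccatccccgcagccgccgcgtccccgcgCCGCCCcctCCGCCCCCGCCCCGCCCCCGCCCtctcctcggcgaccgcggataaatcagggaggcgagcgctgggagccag
Cacna2d3: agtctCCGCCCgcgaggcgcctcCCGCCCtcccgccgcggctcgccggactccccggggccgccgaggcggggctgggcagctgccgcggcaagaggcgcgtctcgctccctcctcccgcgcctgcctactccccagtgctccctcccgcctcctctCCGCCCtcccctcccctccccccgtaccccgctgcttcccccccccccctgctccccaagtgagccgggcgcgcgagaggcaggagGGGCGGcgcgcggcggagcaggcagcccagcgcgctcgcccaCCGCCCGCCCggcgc
The GC box letters occurred 0 times in the Kcnj8 promoter, 3 times in Kcnj10, 0 times in Scn9a, 7 times in Cacna2d1 and 6 times in Cacna2d3, and the TATA letters in none of the 5. GC content was 53.3% in Kcnj8, 63.7% in Kcnj10, 57.3% in Scn9a, 80% in Cacna2d1 and 81.3% in Cacna2d3. Of all 32851 promoters of this length in the table, 35.7% held the GC box letters and 13.6% the TATA letters. Of the 124 promoters of the 90 channel genes found there, 49.2% and 4.84% did. These matches describe letters only.

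A barcode counted as a cell with 500 or more unique molecular identifiers (UMIs, each a counted transcript molecule), 300 or more genes and no more than 20% mitochondrial UMIs. Of 28410 barcodes 15378 passed, 214 were removed as doublets, and 15164 cells were left, 49 to 1753 per library. In all, 41 barcodes occurred in more than 1 library, 3 of them among the kept cells. Clusters were named from markers: 1692 glutamatergic, 2641 GABAergic, 138 hypocretin and 57 MCH neurons, 1663 neurons without a class, 6177 oligodendrocytes, 641 oligodendrocyte precursor cells (OPCs), 913 astrocytes, 447 microglia, 410 endothelial cells and 259 mural cells. The median depth per cell was 4350 UMIs or more in glutamatergic and GABAergic neurons, 3210.5 in hypocretin and 4100 in MCH neurons, and between 676 and 1095 in the other classes. Levels are CPM (counts of a gene scaled to a fixed total of UMIs) of a class summed within a mouse, as mean ± SD over mice, and in groups of over 5 mice the lowest, median and highest mouse follow. A class was used in mice with at least 10 of its cells (5 for hypocretin and MCH neurons), which gave 13 mice for glutamatergic and GABAergic neurons, 9 for hypocretin, 5 for MCH, 14 for oligodendrocytes, 11 for OPCs, 12 for astrocytes, 12 for microglia, 12 for endothelial and 10 for mural cells. Differences were tested in edgeR, a count model, with the mouse as a block and p-values adjusted over all genes tested, and passed at an adjusted p under 0.05; a log2 difference has its standard error (SE). These fits scale libraries by TMM, so their differences need not equal ratios of the CPM. CPM count molecules without regard to gene length, so levels are compared between cells and not between genes.

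Before the results, 3 libraries stood apart. Neuron subcluster 3, which got no class name, drew 96.3% of its cells from control replicates 1 and 2 together with high fat diet replicate 1. Neuron markers were also found outside neurons. The 8 neuron markers summed to a median of 17660 CPM in glutamatergic and GABAergic neurons, and OPCs held 12.8% of that (1881 to 2987 CPM, all 8 markers present), mural cells 5.08%, astrocytes 5.47% and oligodendrocytes 3.12%. The part of such RNA in the channel levels of glia was not tested. The OPC markers themselves summed to 9272, 12869 and 14575 CPM (lowest, median and highest mouse) in OPCs, the astrocyte markers to 29280, 33147 and 35802 CPM in astrocytes and the mural markers to 31078, 41368 and 45258 CPM in mural cells.

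Of the 124 genes, 123 had at least 1 UMI and 86 at least 100. Summed over all 124, the level was 3939 ± 273 CPM in glutamatergic neurons, 3617 ± 376 in GABAergic neurons and 3983 ± 439 in OPCs. It was lower in MCH neurons (2544 ± 291) and hypocretin neurons (2128 ± 341), in which the peptide transcripts Pmch and Hcrt alone took 20.2% and 14.9% of UMIs. Astrocytes held 2763 ± 447 CPM, mural cells 1986 ± 556, oligodendrocytes 1750 ± 222, microglia 585 ± 112 and endothelial cells 345 ± 147. The families behind these totals differed between classes. Inward rectifiers made up 1261 ± 353 CPM in astrocytes, 952 ± 432 in mural cells, 715 ± 160 in OPCs and 618 ± 182 in oligodendrocytes. They made up 136 ± 23.8 CPM in glutamatergic and 125 ± 27.8 CPM in GABAergic neurons, 80.9 ± 44.5 in hypocretin and 82.4 ± 65.2 in MCH neurons. In endothelial cells and microglia they made up 75.3 ± 50.1 and 66.3 ± 37.1 CPM. Sodium channel pores summed to 587 ± 85.3 CPM in glutamatergic and 516 ± 87.6 in GABAergic neurons, 296 ± 83.5 in OPCs and 17.4 ± 7.43 in oligodendrocytes. Calcium channel auxiliary subunits summed to 812 ± 113 CPM in glutamatergic and 541 ± 77.8 in GABAergic neurons. Potassium channel auxiliary genes were highest in OPCs, at 943 ± 188 CPM, beside 448 ± 69.8 in glutamatergic neurons. Counting the class with the highest mean for each of the 86 genes, 19 peaked in GABAergic and 19 in glutamatergic neurons, 15 in OPCs, 7 each in hypocretin, MCH and mural cells, 6 in astrocytes, 5 in oligodendrocytes and 1 in microglia. Some of these highest means rest on few molecules. Examples are Kcnj13 in hypocretin neurons (2.58 ± 5.35 CPM) and Kcnk4 (12 ± 17.9) and Kcnj2 (19.1 ± 19) in MCH neurons. No mouse of the highest class overlapped the next class for Kcnj8 in mural cells, Kcnip3 in OPCs and Kcna1 in oligodendrocytes. Neither the peaks nor the overlaps were counted over all genes.

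**Figure D1:**
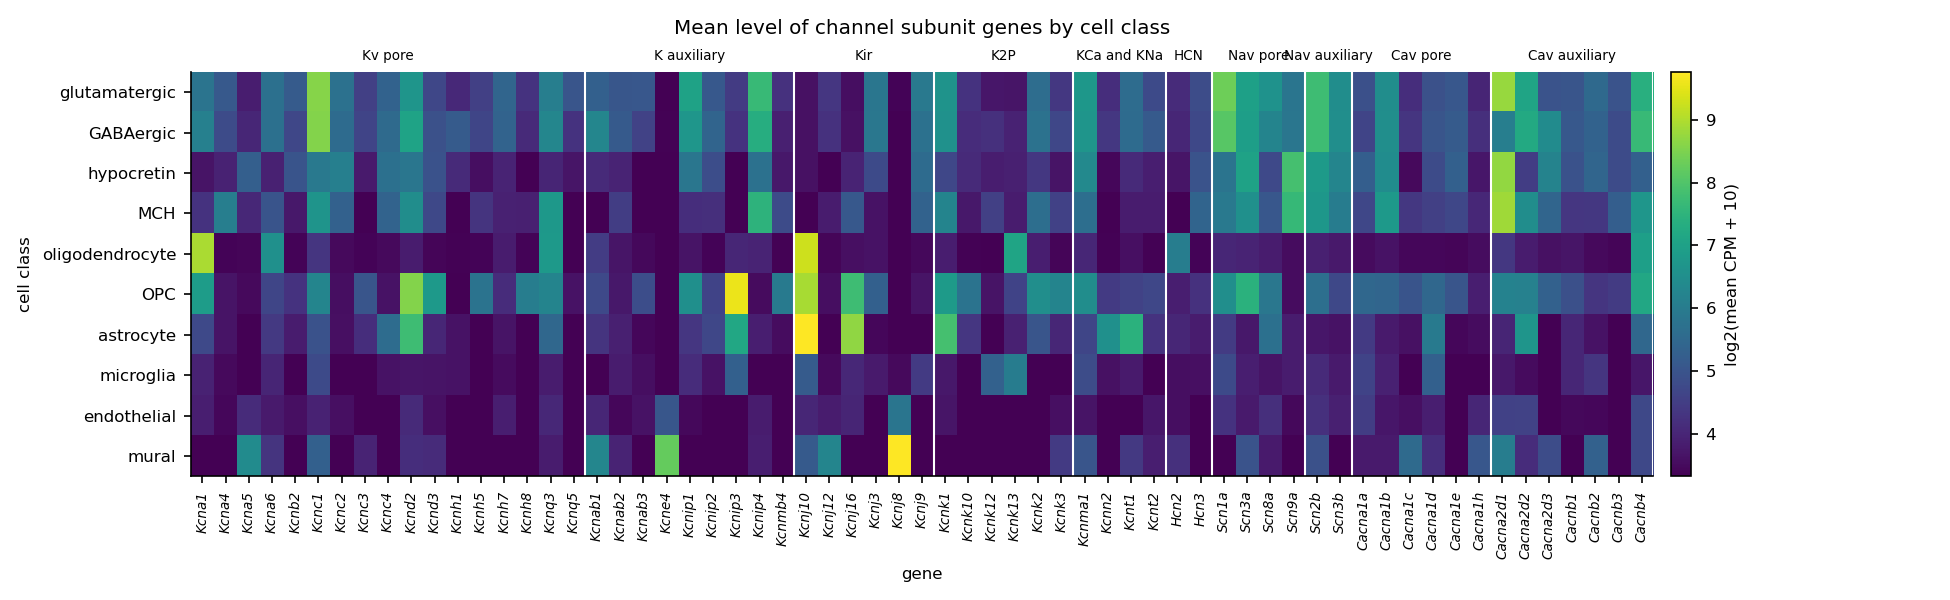
Mean level of 63 channel genes with at least 100 UMIs and a class mean of at least 20 CPM (columns, grouped by family, with Kir for inward rectifiers, K2P for tandem pore channels, KCa and KNa for calcium- and sodium-activated channels) in 10 cell classes (rows). Colour is log2 of the mean CPM plus a pseudocount of 10. Inward rectifiers stand out in astrocytes, oligodendrocytes, OPCs and mural cells. Sodium and calcium channel genes such as Scn1a and Cacna2d1 are bright in neurons, whereas Scn3a is highest in OPCs.

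**Figure D2:**
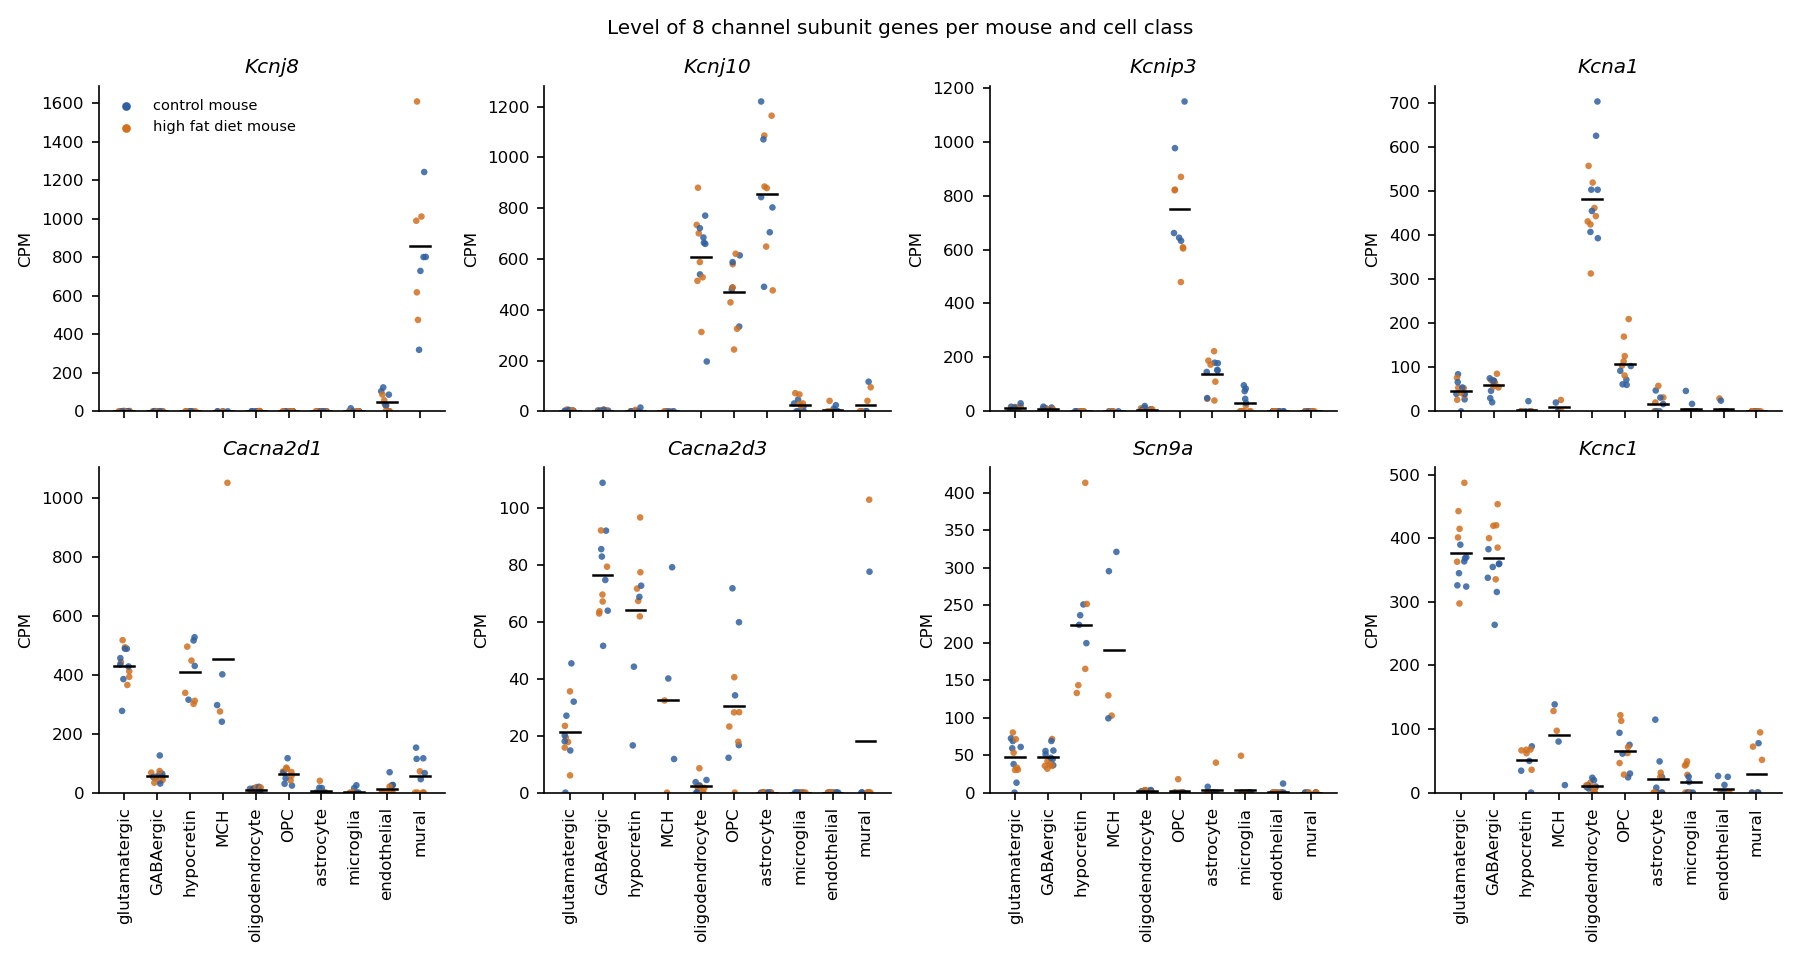
Level in CPM (vertical axes, each from 0) of 8 channel genes in 10 cell classes, 1 point per mouse coloured by diet, with black bars for class means. Kcnj8 is high only in mural cells among these classes (319 to 1609 CPM), and Cacna2d1 and Cacna2d3 separate glutamatergic from GABAergic neurons in opposite directions.

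Glutamatergic and GABAergic neurons were compared within 13 mice. The sharpest contrast lay between alpha2delta subunits of calcium channels. Cacna2d1 (GENCODE M21 on GRCm38, chromosome 5, 15934691 to 16374511, plus strand), which is also a receptor of gabapentin, was at 430 ± 64.9 CPM (278, 435, 518) in glutamatergic and 58 ± 24.3 CPM (30.7, 53.7, 126) in GABAergic neurons. No mouse overlapped, and the log2 difference, GABAergic minus glutamatergic, was -3.02 (SE 0.06, adjusted p 1.6e-49). Cacna2d3 (chromosome 14, 28904943 to 29721864, minus strand), a close relative, ran the other way, at 76.6 ± 15.6 CPM (51.6, 74.8, 109) in GABAergic and 21.2 ± 12 CPM (0, 19.3, 45.4) in glutamatergic neurons, with a log2 difference of 1.74 (SE 0.12, adjusted p 8.1e-20). The groups did not overlap. Cacna2d2, the third alpha2delta gene with a test, was at 140 ± 38.2 CPM in GABAergic and 125 ± 34.6 in glutamatergic neurons, a log2 difference of 0.39 (SE 0.08), and was higher in 10 of 13 mice. Cacnb4, a beta subunit that brings calcium channel pores to the membrane, was at 193 ± 37.4 CPM (123, 203, 252) in GABAergic and 156 ± 31.6 (106, 164, 193) in glutamatergic neurons (log2 difference 0.32, SE 0.06), higher in 12 of 13 mice.

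In all, 14 of the 52 channel genes tested differed between these neurons, 9 higher and 5 lower in GABAergic neurons, against 8.78% of all genes tested (4.73% higher and 4.05% lower). The median log2 difference of the 52 was 0.02, beside -0.00 over all genes. By family, 6 of 18 Kv pores differed (3 higher, 3 lower), 3 of 7 potassium channel auxiliary genes (2 higher, 1 lower), 4 of 7 calcium channel auxiliary subunits (3 higher, 1 lower) and 1 of 3 calcium- or sodium-activated channels. None of the 4 sodium pores, 3 sodium beta subunits, 5 calcium pores, 2 inward rectifiers, 2 tandem pore channels and 1 HCN gene tested passed.

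Potassium channels higher in GABAergic neurons included Kcnh1, an ether-a-go-go Kv pore, at 25.7 ± 11.8 CPM (10.2, 21.8, 51.6) beside 6.64 ± 5.09 CPM (0, 7, 16.9) in glutamatergic neurons. It was higher in 13 of 13 mice, with a log2 difference of 1.44 (SE 0.19, adjusted p 1.6e-08), although the ranges overlapped. Kcnab1, a Kv beta subunit that speeds inactivation, was at 67.8 ± 27.9 CPM (38.1, 56.3, 115) in GABAergic and 29.4 ± 11.8 CPM (13.6, 23.7, 52.9) in glutamatergic neurons, with a log2 difference of 1.29 (SE 0.11, adjusted p 4.7e-16). Smaller differences passed for Kcnmb2, a beta subunit of the BK channel (0.71), Kcnt2, a sodium-activated channel (0.57), Kcna1, a low-threshold Kv pore (0.42), and Kcnd2, the pore of A-type currents (0.37). For Kcnmb2 the difference of class means was -0.10 in pool 1 and 0.78 in pool 2, whereas the other 13 genes had the same sign in both pools. The Kcnd2 difference turned to -0.048 (adjusted p 0.96) when each cell was thinned to 500 UMIs. Lower in GABAergic neurons were Kcnb2, a slow delayed rectifier (-0.61), Kcna4, an A-type pore (-0.56), Kcnip1, a KChIP subunit (-0.47), and Kcnc2, a fast delayed rectifier (-0.40). Kcnip1 was at 122 ± 29.6 CPM (77.8, 121, 178) in glutamatergic and 94.6 ± 20.2 CPM (56.4, 95.1, 132) in GABAergic neurons. Without the mouse as a block 6 of the 14 passed in place of all, and Cacna2d2, Cacnb4, Kcnd2, Kcnc2, Kcna1, Kcna4 and Kcnt2 were among those lost. Over all genes that fit called 148 higher and 147 lower, in place of 384 and 329.

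**Figure D3:**
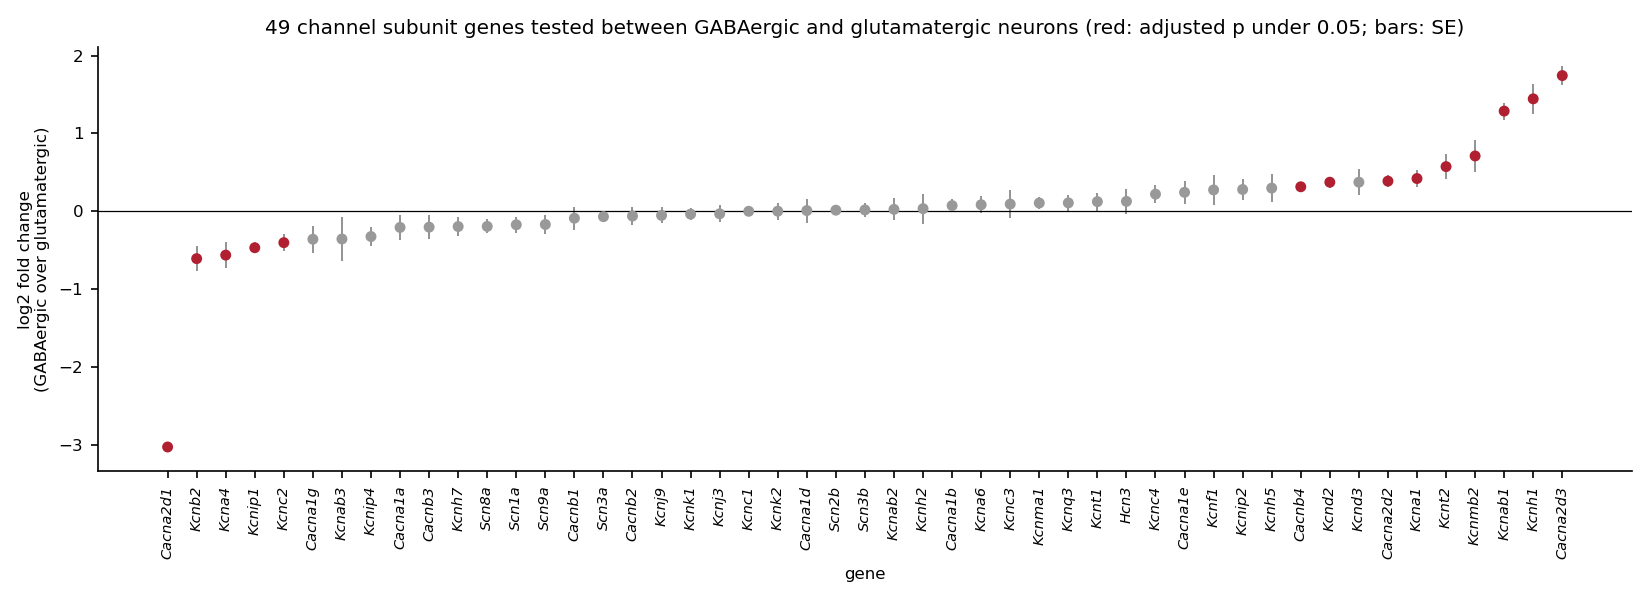
Log2 difference, GABAergic minus glutamatergic neurons, of 49 of the 52 channel genes tested (points, with bars of 1 SE), red where the adjusted p was under 0.05. Most genes lie near 0, with Cacna2d1 at -3.02 and Cacna2d3 at 1.74 at the ends.

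The following genes did not pass between GABAergic and glutamatergic neurons, which does not show that their levels were alike. Scn1a, a sodium pore, was at 316 ± 64.9 CPM (233, 310, 444) in glutamatergic and 264 ± 66.9 (103, 297, 343) in GABAergic neurons, Scn3a at 117 ± 23.9 and 112 ± 30.8, and Scn8a, the pore of the axon initial segment, at 88.2 ± 35.1 and 65.2 ± 17.8. Scn2a1, outside the symbol rule, was at 335 ± 80.8 and 342 ± 76.3 CPM. Kcnc1, a fast delayed rectifier of rapidly firing cells, was at 376 ± 51.5 CPM (297, 369, 487) and 368 ± 50.1 CPM (264, 360, 454). The beta subunit Scn2b was at 209 ± 33.1 and 208 ± 33.4 CPM and Scn3b at 78.9 ± 27.4 and 81.3 ± 13.7. Kcnip4, a KChIP subunit, was at 192 ± 58 CPM (74.1, 192, 302) and 153 ± 35.2 CPM (102, 153, 212), a log2 difference of -0.32 (adjusted p 0.15 in edgeR). Of the subunits of G protein-gated inward rectifiers, which open downstream of inhibitory receptors, Kcnj3 was at 47.4 ± 19.1 and 48.9 ± 14.5 CPM, and Kcnj9 at 51 ± 16 and 43 ± 13.2. Kcnj6, at 11.2 ± 6.19 and 8.85 ± 3.31 CPM, had too few counts for the test. The BK pore Kcnma1 was at 96.9 ± 27.4 and 92.1 ± 23.6 CPM, and the M-current pore Kcnq3 at 58.1 ± 15.2 and 67.5 ± 37.1. Of the calcium pores, Cacna1b (N-type) was at 78.7 ± 21.4 and 81.1 ± 30.8 CPM and Cacna1g (T-type) at 17.5 ± 4.61 and 14.6 ± 3.83. Kcnj11, the pore of the ATP-sensitive channel, gave 1 and 2 UMIs in all glutamatergic and all GABAergic neurons, so its level was near the floor of detection.

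Hypocretin neurons (9 mice) were set against the mean of glutamatergic and GABAergic neurons of the same mice. Of 45 channel genes tested, 4 were higher and 22 lower, beside 36% of all genes (15% higher and 21% lower). The median was -0.71 on the log2 scale, beside -0.11 over all genes. The gene raised most was Scn9a (chromosome 2, 66480080 to 66634962, minus strand), a sodium pore best known from pain-sensing neurons. It was at 224 ± 83.9 CPM (133, 224, 413) in hypocretin neurons and 48.8 ± 14.7 CPM in the other neurons of these mice, higher in 9 of 9 mice, with a log2 difference of 2.44 (SE 0.16, adjusted p 5.1e-30). Its neighbour on chromosome 2, Scn1a (66270778 to 66440840), fell: 46.2 ± 39.4 CPM (0, 34.4, 133) beside 287 ± 46.1, a log2 difference of -2.45 (SE 0.34, adjusted p 1.5e-05). Scn3a, also on chromosome 2 (65457118 to 65567627), was at 121 ± 54.3 CPM, beside 117 ± 23.9 in glutamatergic neurons. Scn8a and Scn2b were lower as well, with log2 differences of -2.16 for Scn8a and -0.67 for Scn2b, which was at 104 ± 35.5 CPM (62, 87.1, 162). Scn2a1 was at 175 ± 56.1 CPM.

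Of 14 Kv pores tested, 7 were lower and 1 higher in hypocretin neurons. Kcnc1, a fast delayed rectifier, was at 50.7 ± 23.7 CPM (0, 62, 72.8) beside 375 ± 49.5, with no overlap and a log2 difference of -2.58 (SE 0.16, adjusted p 1.3e-31). Its relative Kcnc2 was higher, at 59 ± 24.7 CPM (16.6, 62, 87.1), with a log2 difference of 0.99 (SE 0.22, adjusted p 0.00012). Lower by more than 2 on the log2 scale were Kcna1 (-3.42), Kcnt2 (-2.87), Kcna6 (-2.73), Kcnab1 (-2.58), Kcnq3 (-2.48) and the leak channel Kcnk1 (-2.21). Kcna1 was seen only in control replicate 5 (22.9 CPM) and Kcnt2 only in high fat diet replicate 1 (41.3 CPM). The sizes of these 2 differences thus rest on few molecules. Kcnq3 was at 5.95 ± 6.29 CPM (0, 7.17, 17.2) and 4 of 9 mice had none. Kcnip4 was at 42.5 ± 15.2 CPM (20.7, 42.1, 66.4), a log2 difference of -1.66, and the G protein-gated Kcnj3 had one of -1.46. Kcnh7, Kcnk2, Kcnt1, Kcnab2, Kcnd2 and Kcnip1 were also lower, with log2 differences from -1.96 for Kcnh7 to -0.93 for Kcnip1. The BK pore Kcnma1, at 72.3 ± 23.1 CPM, did not pass.

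The calcium channel auxiliary subunits of hypocretin neurons split as well. Cacna2d1 was at 410 ± 93.5 CPM (301, 430, 528), a log2 difference of 1.74 (SE 0.11, adjusted p 8.8e-26) over the mean of both neuron classes, though not above the glutamatergic neurons alone. Cacna2d3 was at 64.2 ± 22.5 CPM (16.6, 68.8, 96.8), a log2 difference of 1.06 (SE 0.22, adjusted p 2.7e-05), and lay between the glutamatergic and GABAergic means. Hypocretin neurons thus held both alpha2delta genes that separated the other neurons. Cacna2d2 was lower, at 12.4 ± 7.45 CPM (0, 14.8, 19.4) beside 140 ± 22.8, with no overlap (log2 difference -2.92, SE 0.29, adjusted p 9e-17). Cacnb4 was lower too, at 29.7 ± 13.5 CPM (8.43, 33.2, 45.9) beside 181 ± 30.2 (log2 difference -2.32, SE 0.22, adjusted p 4.2e-18). None of the 4 calcium pores tested passed.

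MCH neurons rested on 57 cells, and on 5 mice with at least 5 of them. Of 58 channel genes tested 2 were higher and 13 lower, beside 12.4% of all genes (3.93% higher and 8.45% lower). The median was -0.61 beside -0.30 over all genes. With DESeq2's size factors in edgeR 2 genes were higher and 9 lower, and in DESeq2 itself 3 and 6. The share of higher calls among all genes called moved from 31.7% to 48.8% and 61.8%, so the direction of small MCH differences depends on the scaling. Scn9a was at 295 CPM in control replicate 1, 321 in control replicate 4, 99.1 in control replicate 5, 103 in high fat diet replicate 2 and 130 in high fat diet replicate 4. All 5 lay above the other neurons of the same mice (48.9 ± 10.7 CPM), with a log2 difference of 2.13 (SE 0.28, adjusted p 6.5e-12). Cacna2d1 was at 402, 241 and 297 CPM in those control mice and at 1052 and 276 CPM in the high fat diet mice, a log2 difference of 1.71 (SE 0.18, adjusted p 1.2e-15). Its range overlapped that of the other neurons of these mice, which held 214 to 276 CPM, and of glutamatergic neurons alone. Both genes raised in MCH neurons were thus also raised in hypocretin neurons. The 2 contrasts share their comparison cells in part.

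Kcnc1 in MCH neurons was at 11.8, 80.3 and 139 CPM in control replicates 1, 4 and 5 and at 128 and 97.2 in high fat diet replicates 2 and 4, against 396 ± 49.5 in the other neurons (log2 difference -2.12, SE 0.24, adjusted p 2.9e-16). Scn1a was at 35.4, 40.1 and 139 CPM in the same control mice and at 25.7 and 16.2 in the high fat diet mice, against 292 ± 43.3 (log2 difference -2.40, SE 0.30, adjusted p 8e-14). The groups did not overlap for either gene. Kcnip1 was seen in control replicate 4 only, at 40.1 CPM, and the remaining 4 mice had none (log2 difference -4.58). Other lower genes were Kcnj3 (-3.56), Kcnh7 (-3.07), Kcnt1 (-3.01), Kcna1 (-2.94), Scn8a (-1.86), Scn2b (-0.85) and Cacnb4 (-0.80). Of these, Kcnj3, Kcnh7 and Kcnt1 were each seen in a single mouse, at 11.8, 25.7 and 19.8 CPM. The sizes of their differences, like that of Kcnip1, thus rest on few molecules. Kcnab1 and Kcnab3 had 0 UMIs in the 5 mice, and against a floor of 3 UMIs over the group, 11.5 CPM, they were at least 3.80-fold and 1.80-fold lower. MCH cells of mice with fewer than 5 such cells did hold 5 UMIs of Kcnab1. The Kcnab3, Kcnh7, Kcnt1, Scn8a and Scn2b calls were lost in DESeq2. Leaving out high fat diet replicate 4 brought the count of calls from 15 to 9. Kcnip4, at 260, 80.3 and 258 CPM in control and 103 and 146 CPM in high fat diet mice, did not pass in MCH neurons, nor did Kcnq3 at 97.4 ± 54.7.

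**Figure D4:**
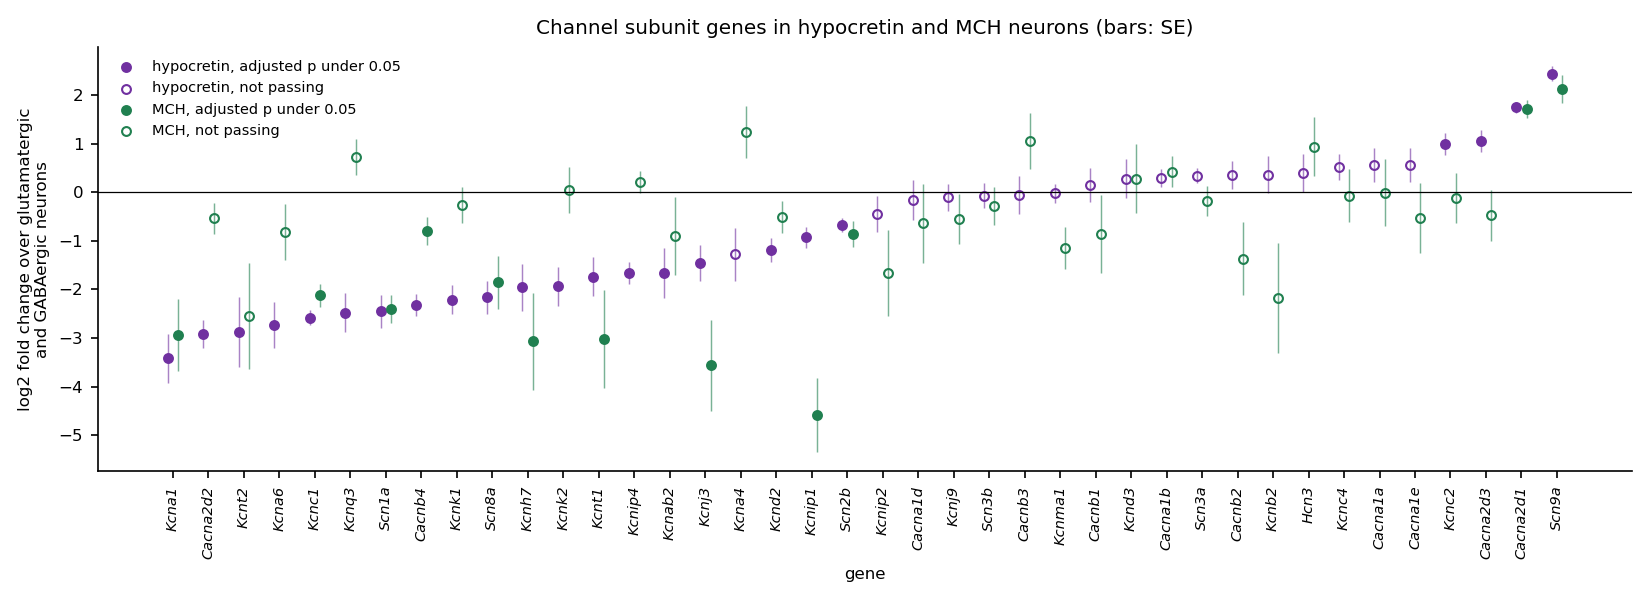
Log2 difference from glutamatergic and GABAergic neurons of the same mice for 40 channel genes tested in both hypocretin (purple, 9 mice) and MCH neurons (green, 5 mice), with bars of 1 SE, leaving out genes at 0 in the MCH mice. Filled points passed at an adjusted p under 0.05. Scn9a and Cacna2d1 lie above 0 in both, and Kcna1, Kcnc1 and Scn1a below.

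Among 20 neuron subclusters tested against all other neurons, 83 of 929 pairs of channel gene and subcluster were higher and 91 lower, beside 8.75% of all gene and subcluster pairs (3.65% higher and 5.1% lower). At least 1 subcluster was raised for 37 of the 67 channel genes tested. The shares above are of pairs, and no share of all genes raised in at least 1 subcluster was taken. Channel genes were left out of the genes used for clustering. Cacna2d1 was highest in the glutamatergic subcluster marked by Tcf7l2, at 702.4 ± 136 CPM (511, 713, 917; 10 mice) beside 182 ± 24.7 in other neurons, a log2 difference of 1.91 (SE 0.08, adjusted p 4.3e-50). It was at 561 ± 139 CPM (398, 547, 883) in the Mab21l1 subcluster, 352 ± 94.1 (182, 364, 484) in the Trh subcluster and 353 ± 90.3 (203, 357, 449) in the Ebf3 and Otp subcluster. The Tcf7l2 subcluster did not overlap other neurons in any mouse. Cacna2d3 was highest in the GABAergic subcluster with Sst and Pax6, at 122 ± 41.5 CPM (40.2, 122, 182; 8 mice) beside 48.1 ± 4.13 (log2 difference 1.37, SE 0.18, adjusted p 3e-11), and was also raised in the Nts and Hmx3 subcluster (80.6 ± 21.9) and the Prdm12 subcluster (80.3 ± 20.8). Other neurons here include both glutamatergic and GABAergic cells. The Nts and Hmx3 level and the Prdm12 level lay near the mean of all GABAergic neurons (76.6 ± 15.6 CPM). For Cacna2d1, the Trh level and the Ebf3 and Otp level lay under the glutamatergic mean (430 ± 64.9 CPM).

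In a glutamatergic subcluster led by Nppc and Trp73, tested in 4 mice, the channel genes higher than in other neurons of the same mice included the following 4. Kcnab3, a Kv beta subunit, was at 125 CPM in control replicate 5 and at 120, 170 and 83.8 in high fat diet replicates 3, 4 and 5. Other neurons of the same mice held 18.1, 10.2, 18.8 and 8.72 CPM, and the log2 difference was 2.98 (SE 0.41, adjusted p 5e-11). Kcnb2 was at 86.3, 103, 142 and 134 CPM in the same mice, in the same order, beside 12.2, 15.1, 18.8 and 19 (log2 difference 2.70, SE 0.42, adjusted p 1.4e-08). Scn4b, a beta subunit linked to resurgent sodium current, was at 62.7, 34.2, 113 and 101 CPM beside 13.6, 7.9, 12 and 7.92 (log2 difference 2.60, SE 0.48, adjusted p 2.7e-06). No mouse overlapped for these 3 genes. Kcnc2 was at 165, 171, 56.7 and 201 CPM beside 36.9, 30.9, 43.6 and 48.3 (log2 difference 1.91, SE 0.32, adjusted p 1.2e-07). In this subcluster 11 of 48 channel genes were higher and 5 lower, beside 3.06% higher and 6.11% lower of all genes tested, on 2 to 21 UMIs per mouse for these 4 genes. Kcnab3 also passed in a glutamatergic subcluster led by Plce1 (54.4 ± 35.1 CPM beside 17.7 ± 3.8, adjusted p 0.023) and in a subcluster of no class led by Abcf2 (28.8 ± 11.6 CPM beside 14.5 ± 3.35, adjusted p 0.04), and Kcnc2 in the hypocretin subcluster (63.3 ± 23.6 CPM beside 41.3 ± 6.94, adjusted p 0.0025).

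GABAergic subclusters also differed in named subunits. The one led by Fam81a and Icam5 (10 mice) held Kcnh1 at 66.9 ± 45.1 CPM (17.7, 63.2, 176) beside 15.7 ± 4.64 (log2 difference 1.87, SE 0.23, adjusted p 7.2e-12), with Kcnip2 at 71.2 ± 30.3 beside 26.8 ± 5.08, Kcnq3 at 120 ± 51.7 beside 53.9 ± 11.5 and Kcnj3 at 83.5 ± 22.6 beside 45.4 ± 8.68. The one with Tac2 and Lamp5 held Kcnab1 at 146 CPM in control replicate 3 and at 163, 188, 109 and 182 CPM in high fat diet replicates 1, 2, 3 and 4, beside 40 ± 17.3 in other neurons. The log2 difference was 2.06 (SE 0.21, adjusted p 1.6e-19), with no overlap. Kcnh8 (log2 difference 2.59) and Kcnh5 (1.42) were raised there too. In the Nts and Hmx3 subcluster (11 mice) Kcnd2 was at 185 ± 42.9 CPM (109, 186, 247) beside 110 ± 19.6, and Kcnt2 at 42.1 ± 21.4 beside 17.2 ± 5.52. Scn7a, a sodium channel relative that senses sodium rather than voltage, was at 33.4 ± 18.8 CPM (12.2, 29.6, 84) in the Trh glutamatergic subcluster beside 10.6 ± 4.95, higher in 11 of 11 mice (log2 difference 1.66, SE 0.23, adjusted p 1.9e-09). It passed in the GABAergic Ddc subcluster as well (42.5 ± 49.3 CPM), where 4 of 7 mice were higher, and in the Nfib subcluster (36.5 ± 21.4), where 8 of 8 were. Kcnmb2 was at 35.6 ± 22.8 CPM in the Ddc subcluster beside 12.6 ± 4.8, and Kcna4 at 42.8 ± 30.2 in the Ebf3 and Otp subcluster beside 17.3 ± 4.83. Kcnma1 (148 ± 81.1 CPM beside 91.5 ± 16.6) and Scn3a (153 ± 49.9 beside 112 ± 25) were raised in the Sst and Pax6 subcluster. Without control replicate 5 the pairs called in all subclusters numbered 149 in place of 174.

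Neurons as a whole were set against 6 glial and vascular classes. A gene could pass the filter on low counts through the class where it is high, so the counts here are a description. Of 13 channel genes that passed the filter on low counts, 9 were higher and 1 lower in neurons, against 80.2% of all genes tested (47.2% higher and 33% lower); the median was 2.53 beside 0.12. Kcnip4 (6.20), Scn1a (4.87), Kcnc1 (4.26), Scn2b (4.12), Kcnk1 (3.05), Cacna2d1 (3.01), Cacnb4 (2.53), Kcnd2 (2.47) and Kcna1 (1.73) were higher on the log2 scale, and Kcnj10 lower (-5.47). These contrasts are with the mean log level of the classes, so Kcna1, Kcnd2 and Kcnk1 were called higher in neurons while a glial class held still more (for Kcnk1 224 ± 96.7 CPM in astrocytes). In DESeq2 9 were higher and 4 lower. There 1472 of all genes were higher and 1570 lower, so the share of higher calls was 48.4% in place of 58.9%.

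Astrocytes and oligodendrocyte lineage cells shared the inward rectifier Kcnj10 (chromosome 1, 172341210 to 172374085, plus strand), the main potassium conductance of glia. It was at 856 ± 248 CPM (476, 862, 1221) in astrocytes, 607 ± 181 (196, 662, 881) in oligodendrocytes and 472 ± 128 (243, 487, 621) in OPCs, and these ranges overlapped. Its partner Kcnj16 (chromosome 11, 110968033 to 111027968, plus strand) was at 401 ± 141 CPM (98.1, 451, 580) in astrocytes and 206 ± 72.3 (56.4, 216, 325) in OPCs, and at 2.1 ± 2.84 in oligodendrocytes. Against the mean of the other 5 glial and vascular classes, 4 of 6 channel genes that passed the filter were higher in astrocytes, beside 64.1% of all genes (35.9% higher and 28.2% lower), with a median of 3.94 beside -0.05. They were Kcnj16 (log2 difference 5.89, SE 0.24, adjusted p 5.9e-52), Kcnd2 (4.31), Kcnip3 (4.00) and Kcnj10 (3.88, SE 0.15, adjusted p 4.8e-57). The contrast is with the mean log level of 5 classes, and OPCs held more Kcnd2 and Kcnip3 than astrocytes did. A gene could pass this filter through the class where it is high and then had to differ, so the count is a description. The leak channel Kcnk1 was at 224 ± 96.7 CPM (49, 200, 416) in astrocytes, the sodium-activated Kcnt1 at 163 ± 62.2 (49.6, 157, 246) and the SK channel Kcnn2 at 84.9 ± 58.7 (25.6, 69.9, 246). These 3 passed without a filter on low counts, when 17 of 112 channel genes were higher and 0 lower (17% of all genes higher and 6.88% lower).

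OPCs had the highest summed channel level among the glia. Of the same 6 genes 5 were higher in OPCs, beside 62.3% of all genes (40.2% higher and 22.1% lower), with a median of 3.52 beside 0.12. As in astrocytes, the filter makes this count a description. Kcnip3 (chromosome 2, 127456498 to 127522094, minus strand), a KChIP subunit also known as a calcium-binding repressor, was at 752 ± 196 CPM (480, 661, 1150) in OPCs and 137 ± 61.5 (40, 152, 223) in astrocytes, the next class. No mouse overlapped, and the log2 difference from the other glial and vascular classes was 6.38 (SE 0.22, adjusted p 2.5e-57). Kcnd2, the A-type pore that KChIP subunits bind, was at 367 ± 118 CPM (212, 365, 627) in OPCs and 209 ± 69.4 (92.7, 214, 327) in astrocytes, with a log2 difference of 4.81 (SE 0.22, adjusted p 2e-47). Kcnj16 (4.26), Kcna1 (2.78) and Kcnj10 (2.42) were higher than the mean log level of the other classes too, although another glial class held more of each. Kcnj16 was at 401 CPM in astrocytes beside 206 in OPCs, and Kcna1 at 481 in oligodendrocytes beside 108 in OPCs. Kcnj10 was at 856 CPM in astrocytes. Without the filter 45 of 112 channel genes were higher in OPCs and 0 lower, beside 20.4% and 5.01% of all genes. Among them were the A-type pore Kcnd3 at 103 ± 31.5 CPM (40.6, 95.8, 163), the leak channels Kcnk2 at 81.5 ± 44.1 (15, 84.6, 163) and Kcnk3 at 65.4 ± 43 (0, 61.2, 141), and the sodium pore Scn3a at 164 ± 41.4 (113, 150, 254).

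Set against glutamatergic and GABAergic neurons, 5 of 13 channel genes were higher in OPCs and 6 lower, beside 78.4% of all genes (36.6% higher and 41.8% lower). The median was -0.48 beside -0.12. As in the contrasts with glia, the filter makes these counts a description. With DESeq2's size factors 5 and 5 passed and in DESeq2 6 and 5, and the share of higher calls among all genes called moved from 46.7% to 55.2% and 57.6%. Kcnj10 (7.33), Kcnj16 (6.35), Kcnip3 (6.27, SE 0.16), Kcnd2 (1.49) and Kcna1 (0.71) were higher. Kcnip4 (-6.73), Kcnc1 (-2.64), Scn2b (-2.47), Scn1a (-1.86), Cacna2d1 (-1.34) and Cacnb4 (-0.48) were lower, Cacnb4 not so with DESeq2's size factors or in DESeq2. As a share of the level in neurons OPCs held 564% for Kcnd3, 196% for Kcnk2, 143% for Scn3a, 77.3% for Cacnb4, 27.8% for Scn1a, 17.8% for Kcnc1 and 0.789% for Kcnip4, beside 12.8% for the summed neuron markers. Kcnd3, Kcnk2 and Scn3a were above the neuron level and Kcnip4 under the marker share, while Kcna4 (12.6%) and Kcnab2 (14.1%) lay near it. The part of neuron RNA in these levels was not tested. Kcnh1, Kcnmb2 and Scn7a had 0 UMIs in OPCs.

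Oligodendrocytes held the low-threshold Kv pore Kcna1 (chromosome 6, 126640397 to 126646384, minus strand) at 481 ± 99.2 CPM (312, 458, 702.5), beside 108 ± 46 (59.9, 103, 209) in OPCs, with no overlap. Kcna6 of the same family was at 84.5 ± 12 CPM (62.4, 85.3, 109), the leak channel Kcnk13 at 125 ± 43 (57.3, 131, 208), the M-current pore Kcnq3 at 99.6 ± 27.9 (54.5, 106, 140) and the pacemaker channel Hcn2 at 55.9 ± 27.7 (11.1, 57.6, 117). In microglia the leak channel Kcnk6 was at 121 ± 41.7 CPM (56, 121, 185) and Kcnk13 at 55.1 ± 25.8.

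Mural cells, which wrap vessels, were marked by Kcnj8 (chromosome 6, 142564837 to 142571614, minus strand), the pore of the vascular ATP-sensitive potassium channel. It was at 860 ± 376 CPM (319, 802, 1609) in mural and 46.3 ± 44.8 CPM in endothelial cells, the next class, with no overlap. In 10 of 10 mice mural cells lay above the other glial and vascular classes, and the log2 difference was 8.01 (SE 0.27, adjusted p 5.2e-57). Kcnj10 was lower (-3.01), and Kcna1 and Kcnj16 had 0 UMIs in the 10 mice, at least 9.24-fold and 9.10-fold lower than the mean of the other classes against a floor of 13.9 CPM. That was 4 of the 6 genes (1 higher, 3 lower), beside 51.8% of all genes (24.6% higher and 27.1% lower), with a median of -4.00 beside -0.21. Kcnj8 could pass the filter through mural cells alone, so this count is a description as well. Without the filter 12 of 112 channel genes were higher and 5 lower (6.8% and 8.12% of all genes). Higher were the accessory subunit Kcne4 at 295 ± 164 CPM (94.7, 278, 548), Kcnmb1, the smooth muscle BK subunit, at 117 ± 88.3 (0, 99, 284), the vascular Kv pore Kcna5 (0, 82.4, 145), the inward rectifier Kcnj12 at 66.7 ± 62.9 (0, 49.2, 217) and the L-type calcium pore Cacna1c at 36.6 ± 38.5.

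Mural cells fell into 2 subclusters, pooled over mice here since each mouse gave few cells, so no test was made, and the exact Poisson intervals (95%) cover counting error only. In the 150 cells led by Atp13a5, Abcc9 and Vtn (128464 UMIs), Kcnj8 had 205 UMIs, 1596 CPM (1385 to 1830), and Abcc9, its sulfonylurea receptor, 53 UMIs. In the 109 cells led by Pln, Acta2 and Tagln (107884 UMIs), Kcnj8 had 3 UMIs, 27.8 CPM (5.73 to 81.3), and Abcc9 2. The Acta2 cells instead held Kcnmb1 at 195 CPM (120 to 298), Kcna5 at 158 CPM (91.8 to 252) and Kcnab1 at 204 CPM (128 to 309). Kcna5 and Kcnab1 had 0 UMIs in the Abcc9 cells, which allows up to 28.7 CPM, and Kcnmb1 had 3. Kcne4 was found in both, at 397 CPM (296 to 522) in the Abcc9 cells and 241 CPM (157 to 353) in the Acta2 cells. Abcc9 is a leading gene of its subcluster and, unlike Kcnj8, was not left out of the genes used for clustering. The split of Abcc9 is thus not independent of the clustering.

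Genes that work with these channels, 34 in a list of partners, were tested in the same contrasts. Between GABAergic and glutamatergic neurons 21 were tested and 3 were higher (Fgf12, Fgf13, Fxyd6) and 2 lower (Cacng4, Fxyd7) in GABAergic neurons, beside 4.73% higher and 4.05% lower of all genes tested. In hypocretin neurons 3 of 22 were higher, with log2 differences of 3.11 for the calcium channel inhibitor Rrad, 1.52 for Cacng3 and 0.29 for Dpp6, and 11 lower, among them the A-type channel partner Dpp10 (-4.11), beside 15% and 21% of all genes. In MCH neurons 2 of 23 were higher, one of them Cacng5 (1.77), and 4 lower (Fgf14, Nedd4l, Fgf13 and Fgf12), beside 3.93% and 8.45% of all genes. In OPCs 5 of 5 were higher than in other glia, led by Cacng4 (8.03) and Dpp6 (4.42), a partner of Kcnd2, where 40.2% of all genes were higher. In astrocytes 3 of 5 were higher, with Lgi1 at 6.43, beside 35.9% of all genes, and in mural cells 0 were higher and 4 of 5 lower, beside 24.6% and 27.1%. Among glia a partner could pass the filter through the class where it is high. The glial counts of partners are therefore a description, as for the channel genes. Partners, unlike channel genes, were not left out of the genes used for clustering.

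Diet was compared per mouse, high fat diet minus control, with sequencing pool as a covariate. No channel gene passed in any class: 0 of 134 pairs of gene and class in edgeR, with 3 at an unadjusted p under 0.05, and 0 in DESeq2, with 3. Over all genes 0.012% passed in GABAergic neurons (1 of 8354) and 0% in each other class. In GABAergic neurons 20 of 56 channel genes had a higher and 36 a lower estimate, with a median of -0.04 beside -0.00 over all genes. In glutamatergic neurons 44 were tested, in neurons of no class 20 (4 higher and 16 lower estimates, median -0.25 beside 0.02 over all genes), in oligodendrocytes 7, in OPCs 4, in astrocytes 2 and in mural cells 1. No channel gene passed the filter for the diet test in microglia and endothelial cells, and hypocretin and MCH neurons had too few mice with 10 or more cells for a diet test. A sum over the cells of a class cannot tell fewer molecules per cell from a change in which cells were captured.

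The lowest p in GABAergic neurons was that of Kcnip4, at 172 ± 33.2 CPM (123, 178, 212) in 7 control and 131 ± 23.5 CPM (102, 132, 156) in 6 high fat diet mice. The ranges overlapped, and the log2 difference was -0.39 (SE 0.15, unadjusted p 0.0142 in edgeR), or -0.53 in pool 1 and -0.16 in pool 2. Scn7a was at 19.7 ± 8.48 CPM (10.2, 16.8, 33.2) in control and 10.8 ± 7.34 (5.13, 8.7, 25.4) in high fat diet mice (log2 difference -0.89, SE 0.34, unadjusted p 0.0152 in edgeR). All but 1 high fat diet mouse lay below the control range. Kcnc1 was at 339 ± 39.2 CPM in control and 402 ± 40.1 in high fat diet mice (log2 difference 0.23, SE 0.11). In oligodendrocytes Kcnk13 was at 109 ± 40.1 CPM (57.3, 117, 177) in control and 142 ± 41.9 (66.8, 145, 208) in high fat diet mice (log2 difference 0.43, SE 0.21, unadjusted p 0.0477 in edgeR). Adjusted p-values of all these genes were 0.94 or more. Kcnj10 in astrocytes was at 856 ± 260 CPM in control and 857 ± 259 in high fat diet mice (log2 difference -0.04, SE 0.21), with 0.32 in pool 1 and -0.56 in pool 2. Kcnj8 in mural cells was at 779 ± 328 and 941 ± 440 CPM (log2 difference 0.21, SE 0.35). In OPCs the log2 differences were -0.14 for Kcnip3, 0.07 for Kcnd2, -0.29 for Kcnj16 and -0.15 for Kcnj10. Their signs differed between pools, as for Kcnd2, at -0.44 in pool 1 and 0.63 in pool 2. A p above the threshold does not show that the diets gave equal levels.

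**Figure D5:**
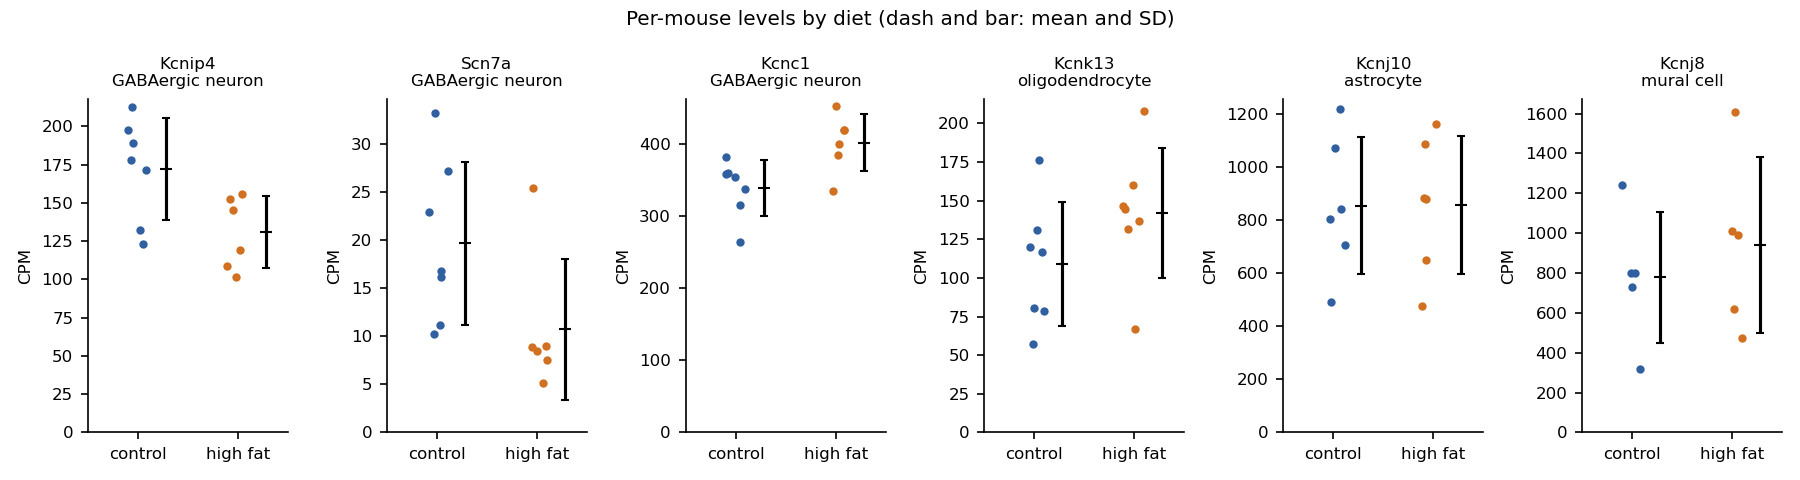
Level in CPM (vertical axes from 0) of 6 channel genes in the named class, 1 point per mouse, control in blue and high fat diet in orange, with a dash and bar for mean and SD. Control and high fat diet mice overlap in each panel.

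In neuron subclusters 0 of 223 pairs of channel gene and subcluster passed for diet in edgeR (12 at an unadjusted p under 0.05) and 0 in DESeq2 (2), over 14 subclusters. Over all genes 0 of 43885 pairs of gene and subcluster passed in edgeR, so the lack of calls was not particular to channel genes. Among the channel gene pairs the lowest p was that of Kcnab1 in the Prdm12 GABAergic subcluster (log2 difference 2.2, unadjusted p 0.000389, adjusted p 0.989, edgeR). Without the filter on low counts this pair passed at an adjusted p of 0.0206. The diet effect itself was not found to differ between GABAergic and glutamatergic neurons for any of 60 channel genes in edgeR (3 at an unadjusted p under 0.05, 1 in DESeq2), with the lowest p for Scn7a (interaction -0.96, unadjusted p 0.0203). Over all genes 0 of 8982 passed for this interaction in edgeR.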

How the data were processed

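The deposited values are raw UMI counts, whole numbers in 1 table of genes by barcodes per mouse, and no count was normalized by the authors. The submitters' processing notes name STAR 2.4.2a, Picard 2.2.4 and bcl2fastq 2.18.0.12, with build mm10 (GRCm38). The UMI counter, with its annotation and use of strand, and the barcode filter: not given in the sources used here. Labels name 1 mouse per library. The channel genes, the partner list and the markers were chosen with earlier results of these data known.

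Doublets were called with Scrublet in scanpy 1.11.5 (expected rate 5%; 1.39% of barcodes removed). Cells were clustered on 2000 variable genes, without the channel genes, with 30 principal components, 15 neighbours and the Leiden algorithm (leidenalg 0.10.2) at resolution 1. Neurons (6191) were clustered again into 26 subclusters. A class name needed 3 markers raised 1.5-fold and seen in 10% of cells. Naming glutamatergic and GABAergic neurons also used a transporter ratio (Slc17a6 and Slc32a1) of 3 and the transporter in 50% of cells.

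UMI counts were summed per mouse and class and tested in R 4.3.3 with edgeR 4.0.16 (TMM, filterByExpr, robust quasi-likelihood F test, Benjamini-Hochberg over all genes, and over all gene and subcluster pairs for subclusters). The mouse was a block between cell types, and sequencing pool a covariate for diet. The glial filter let few channel genes through, so values without it are printed too. Channel genes that passed through the class where they are high had to differ, so those counts are a description. Named were, per contrast, up to 12 passing genes per direction at 20 CPM or more, up to 4 per subcluster, up to 5 per direction for diet, and a fixed list. Some channel genes are counted but not reported here by name. Alternatives were edgeR with DESeq2's size factors, no filter, DESeq2 1.42.0, limma 3.58.1 (voom), no block, no pool term, cells thinned to 500 UMIs, doublets kept, Leiden resolution 2, and each mouse left out. The scripts were tested on simulated data.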

Additional observations from a re-analysis of the deposited data

Results flagged for a closer look

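In groups of 4 to 10 mice, a channel gene's level was checked for a highest or lowest mouse whose gap to the nearest mouse was large against the range of the group (Dixon's test at 95%). Of 116 groups checked 21 met it, and chance gives about 1 in 20 groups. In 6 of the 21 all other mice were at 0. A single mouse with any molecules among zeros always meets this test, so that rate does not hold for those 6.

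In hypocretin neurons Scn9a was at 413 CPM in high fat diet replicate 1 beside 133 to 252 in the other mice. There Kcna1 was seen only in control replicate 5 (22.9 CPM, 4 UMIs) and Kcnt2 only in high fat diet replicate 1 (41.3 CPM, 2 UMIs). In MCH neurons, with 5 mice, Cacna2d1 was at 1052 CPM in high fat diet replicate 2 (others 241 to 402), and Scn1a at 139 CPM in control replicate 5 (others 16.2 to 40.1). Seen in a single MCH mouse each, on 1 UMI, were Kcnip1 (40.1 CPM, control replicate 4), Kcnj3 (11.8 CPM, control replicate 1), Kcnh7 (25.7 CPM, high fat diet replicate 2) and Kcnt1 (19.8 CPM, control replicate 5).

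Control replicate 7 stood out in 6 groups of control mice: Kcnq3 (178 CPM; others 30.7 to 74) and Cacna2d1 (126 CPM; others 30.7 to 64.3) in GABAergic neurons, Kcnj16 in astrocytes (98.1 CPM, below 393 to 511), and in neurons of no class Cacna2d2 (377 CPM), Kcnq3 (226 CPM) and Kcnma1 (302 CPM). Control replicate 7 gave only 217 cells. Its sums were the smallest used in neurons of no class (13246 UMIs) and astrocytes (20389 UMIs), so those levels rest on few molecules. The smallest oligodendrocyte sum was that of control replicate 6 (50956 UMIs, from a library of 149 cells). Control replicate 5 held Kcna1 at 418 CPM in neurons of no class (others 0 to 95.9). Control replicate 6 was lowest in oligodendrocytes for Kcnj10 (196 CPM; others 539 to 771) and Kcnq3 (58.9 CPM; others 103 to 124). Among high fat diet mice, replicate 1 was highest for Scn7a in GABAergic neurons (25.4 CPM; others 5.13 to 9.01) and Kcnip2 in glutamatergic neurons (41 CPM; others 23.5 to 29), and replicate 2 for Kcna6 in oligodendrocytes (109 CPM; others 74.2 to 88.8).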

How the results depend on the processing

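The count of channel genes called was within 1.5 times under DESeq2's size factors in each contrast. DESeq2 gave 9 calls in MCH neurons (15 in edgeR). Without the filter on low counts there were 44 calls in hypocretin neurons, 45 in OPCs, 17 in astrocytes and 17 in mural cells against other glia, 60 in OPCs against neurons, 84 in neurons against glia, and 1 each for diet in classes (Kcne2) and subclusters (Kcnab1), where more genes were tested. Of the channel genes, 120 were tested in hypocretin neurons and 123 each in OPCs against neurons and in neurons against glia. Over all genes these fits called 1088 higher and 2414 lower of 19271 in hypocretin neurons, 2992 and 4447 of 20850 in OPCs against neurons, and 7819 and 2053 of 20850 in neurons against glia. Against other glia, with 112 channel genes tested, 25.4% of all genes were called in OPCs, 23.8% in astrocytes and 14.9% in mural cells. With cells thinned to 500 UMIs fewer genes were tested. Between GABAergic and glutamatergic neurons 2 of 7 channel genes tested passed, in hypocretin neurons 4 of 5 and in MCH neurons 0 of 9. Against other glia 3 of 3 passed in OPCs, 2 of 3 in astrocytes and 2 of 3 in mural cells. In OPCs against neurons 5 of 5 passed, and in neurons against glia 4 of 5. Over all genes the thinned fits called 45 higher and 40 lower of 1733 between GABAergic and glutamatergic neurons. They called 58 and 276 of 1393 in hypocretin and 20 and 316 of 2155 in MCH neurons. Kcnd2, higher in GABAergic neurons, reversed to -0.048 in the thinned cells, and the cause was not tested.

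The mouse was a block between cell types since both came from 1 animal. With no replicate block 6 channel genes differed between GABAergic and glutamatergic neurons in place of 14, 12 in MCH neurons, and the other class contrasts kept their counts (26, 5, 4, 4, 11 and 10), with 128 subcluster pairs. Over all genes, calls between GABAergic and glutamatergic neurons fell as well, to 148 higher and 147 lower in place of 384 and 329. No paired analysis was possible because the replicate numbers of control and high fat diet mice do not pair them.

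Leaving out each mouse in turn gave 10 to 15 calls between GABAergic and glutamatergic neurons (10 without high fat diet replicate 2), 26 to 30 in hypocretin and 9 to 15 in MCH neurons (9 without high fat diet replicate 4), 5 in OPCs, 4 in astrocytes, 4 in mural cells, 11 in OPCs against neurons, 10 in neurons against glia, 149 to 181 subcluster pairs and 0 for diet in classes, subclusters and the interaction. Without control replicates 1 and 2 together with high fat diet replicate 1 there were 14, 29 and 11 calls in the neuron contrasts. Diet calls were 0 with limma voom and without the pool term. In glia, at 676 to 1095 UMIs per cell, most channel genes had too few counts for the filter, and in MCH neurons 1 UMI in a mouse is 11.8 CPM or more.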

Other observations

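Of 112 UMIs of Kcnj13, an inward rectifier of transporting epithelia, 96 (85.7%) came from 5 barcodes of control replicate 1, as did 43 of 46 UMIs of the accessory subunit Kcne2 (93.5%) and 6393 of 6981 UMIs of Ttr (91.6%), a transcript of the choroid plexus. These barcodes held 742 to 31739 UMIs and lay in a neuron subcluster that met the markers of no class. The unfiltered diet call of Kcne2 in neurons of no class (log2 difference -5.67, adjusted p 0.000516 in edgeR) rests on a gene whose UMIs are nearly all in these barcodes.

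A neuron subcluster of no class with a median of 1138 UMIs per cell (7 mice) had 7 of 37 channel genes higher and 0 lower than other neurons, beside 7.82% higher and 16.8% lower of all genes tested. Control replicates 1 and 2 together with high fat diet replicate 1 gave 46.3% of its cells. Scn1a was at 1006 ± 399 CPM beside 263 ± 48.9, Scn8a at 323 ± 148 beside 66.4 ± 10.5, Kcnc1 at 1115 ± 591 beside 366 ± 38.3 and Kcna1 at 444 ± 499 beside 56 ± 11.1. The part of its low depth in these levels was not tested.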
